A study of Rattus norvegicus with 40 samples.

Results

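Bile acid transport and sensing was followed through 7 genes, chosen by name: the uptake carrier Slc10a2, the export carrier subunits Slc51a and Slc51b, the export pumps Abcc2 and Abcc3, and the nuclear receptors Nr1h4 and Nr0b2. Of these, 6 had a probe set (several oligonucleotides that together measure 1 transcript) naming them in the platform annotation, each a single one, out of 14217 genes named in all. Slc51b, the partner subunit of Slc51a, was not analysed here. The samples were whole intestine and whole lung of Wistar rat embryos at gestational day 20 (E20) and day 16 (E16), with 10 Affymetrix arrays for each of the groups intestine E20, intestine E16, lung E20 and lung E16. All embryos were of the same strain, without a treatment named in the labels, and came from timed matings. Labelling used 1 µg of total RNA from intestine but 2 µg from lung, and the effects of tissue and of RNA amount cannot be told apart. The labels leave unsettled whether an array holds a single embryo or pooled siblings, and whether an age spans several litters. The p-values therefore refer only to variation among these 40 arrays, part of which may be technical.

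Bile acids are made in the liver, secreted with bile to help absorb fat, and largely recovered in the ileum. There Slc10a2 takes them up across the brush border, and the Slc51a and Slc51b subunits together release them into portal blood. Nr1h4 (also called FXR) is the receptor that binds bile acids in the cell nucleus, and Nr0b2 (also called SHP) is a co-repressor that it is known to induce. Abcc2 exports conjugated organic anions across the apical membrane, and Abcc3 exports them across the basolateral membrane. In the rat, ileal Slc10a2 is known to become abundant around weaning, well after the ages studied here.

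In the intestine, Slc51a, Abcc2 and Nr1h4 rose between E16 and E20, whereas Slc10a2, Abcc3 and Nr0b2 did not pass the criteria. None of the 6 genes passed them in the lung (3 of 6 had an unadjusted limma p under 0.05, as did 9818 of all 14217 genes). A gene was called at a limma adjusted p (Benjamini-Hochberg over all 14217 genes) under 0.05 together with a difference of at least 2-fold, that is 1 on the log2 scale. Of all genes, 15.1% were called between the ages in intestine (8.79% higher and 6.26% lower at E20), against 3 of the 6 genes here, all higher. In the lung 11.8% of all genes were called, against 0 of 6. The difference between the intestinal and the lung change was called for Slc51a, Abcc2 and Nr1h4, where 17.6% of all genes were called (8.48% in that direction). Without the fold minimum, 5 of 6 genes had an adjusted p under 0.05 in intestine and 2 of 6 in lung, where 71.5% and 66.7% of all genes did.

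**Figure D1:**
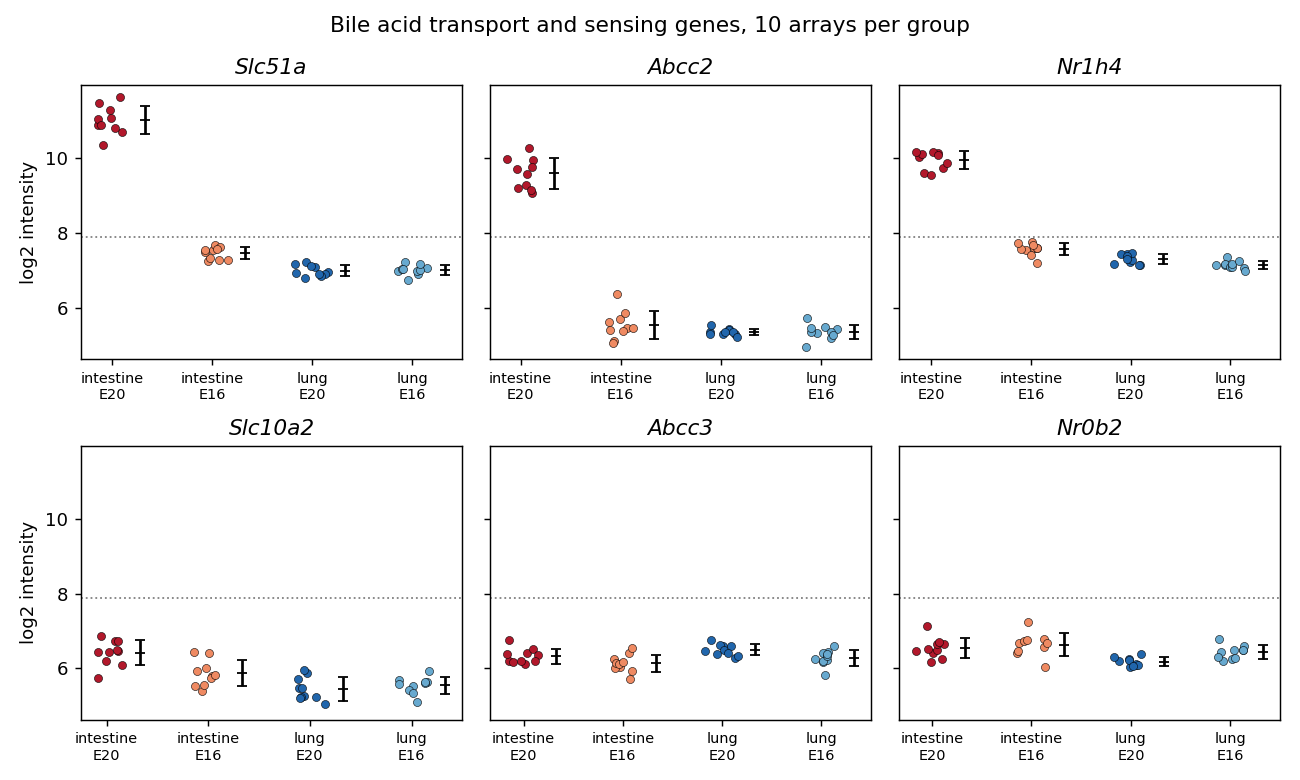
Log2 intensity of each gene (vertical axis) in the 4 groups, with a point per array and the mean ± SD of 10 arrays beside it. The dotted line is the median of all log2 values (7.89), and heights are not comparable between genes. Slc51a, Abcc2 and Nr1h4 stood above the line in intestine E20 and below it in the other groups. Slc10a2, Abcc3 and Nr0b2 stood below it in every array.

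The promoter windows of Slc51a and Abcc2, the transporters that rose, are shown first, because both genes changed in the same tissue. The windows run from 250 bases before to 50 bases after the annotated transcription start, from RefSeq on the GRCr8 build, and 5 of the 7 genes had one. Nr1h4 and Abcc3 were not among them. Slc51a lies on the plus strand at chr11:81803891-81804190 and Abcc2 on the plus strand at chr1:252613625-252613924. Capitals mark matches on either strand to the motifs searched: AGGTCA (a nuclear receptor half-site), the FXR inverted repeat (the half-site facing its complement across 1 base), CAAAGTCCA (HNF4), GTTAAT (HNF1) and the HNF1 palindrome. Also searched were TTTATG for the CDX factors, AGATAA for the factors of the Gata4 family, and TATAAA for the core promoter box.
Slc51a: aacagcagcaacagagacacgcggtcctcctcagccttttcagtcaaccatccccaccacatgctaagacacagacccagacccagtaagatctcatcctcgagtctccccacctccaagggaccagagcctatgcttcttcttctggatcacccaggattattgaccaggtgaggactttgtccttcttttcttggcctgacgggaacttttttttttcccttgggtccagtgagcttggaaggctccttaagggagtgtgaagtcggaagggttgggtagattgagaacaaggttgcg
Abcc2: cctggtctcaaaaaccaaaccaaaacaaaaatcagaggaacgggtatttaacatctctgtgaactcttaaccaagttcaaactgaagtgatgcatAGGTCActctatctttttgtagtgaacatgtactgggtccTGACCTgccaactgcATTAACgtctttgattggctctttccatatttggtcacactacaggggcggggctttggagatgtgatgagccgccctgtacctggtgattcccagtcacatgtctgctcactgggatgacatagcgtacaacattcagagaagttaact
The Abcc2 window held AGGTCA on the plus strand at -155 to -150 and on the minus strand at -115 to -110, counted from the start site, and GTTAAT on the minus strand at -100 to -95. No motif searched was found in the Slc51a window. Of 33469 rat windows of the same length, 16.2% held AGGTCA and 7.45% held GTTAAT. The inverted repeat, which contains the half-site, was in 0.0269% of windows and in none of the 5. Only exact matches within the window were counted, so a variant site or one farther away would be missed. In the other windows, Slc51b held AGGTCA at -132 to -127, Slc10a2 held GTTAAT at -227 to -222 and TTTATG at -132 to -127 (12.7% of windows), and Nr0b2 held TATAAA at -29 to -24 (14.2%). CAAAGTCCA (0.391%), AGATAA (11.6%) and the HNF1 palindrome (0.00299%) were in none of the 5. These matches describe letters and were not tested against the expression values.

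Slc51a, the subunit that spans the basolateral membrane with Slc51b, was measured by probe set 1378288_at. It had a lowest, median and highest log2 intensity of 10.35, 10.98 and 11.63 in intestine E20, against 7.25, 7.51 and 7.69 in intestine E16. In lung it had 6.79, 6.94 and 7.22 at E20, against 6.74, 7.02 and 7.23 at E16. Every intestine E20 array thus lay above every array of the other groups, and 17.3% of all genes had every intestine E20 array above every intestine E16 array. In linear units the median intensity was 2015 in intestine E20, against 182 in intestine E16. Within its own array the probe set moved to a median position at 93.3% of all probe sets in intestine E20, against 40.2% in intestine E16. The means were 11.02 ± 0.38 in intestine E20 and 7.46 ± 0.16 in intestine E16 (SD, n = 10 each), a rise of 3.56 on the log2 scale (SE 0.099), or 11.8-fold, with a limma adjusted p of 2.97e-30. It ranked 214th among the 1250 rises. In the lung the difference was -0.020 (95% interval -0.22 to 0.18, limma adjusted p = 0.87), which leaves a 2-fold change of the probe set signal outside the interval. No detection call was used, so its lung level is not shown to be above background. The intestinal change exceeded the lung change by 3.58 (SE 0.14, limma adjusted p = 1.75e-24).

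Abcc2, also called Mrp2, was measured by probe set 1368497_at and showed the largest rise of the 6. Its lowest, median and highest log2 intensities were 9.08, 9.65 and 10.29 in intestine E20, against 5.06, 5.46 and 6.36 in intestine E16. In lung they were 5.21, 5.35 and 5.53 at E20, against 4.96, 5.34 and 5.72 at E16. The intestine E20 arrays again lay above every intestine E16 array, as for 17.3% of all genes, and above every lung array. The share of all genes above all other groups together was not computed. Intestine E16 overlapped with both lung groups. The means were 9.60 ± 0.41 in intestine E20 and 5.54 ± 0.37 in intestine E16 (SD, n = 10 each), and the rise was 4.06 (SE 0.13, 16.7-fold, limma adjusted p = 2.63e-28). In intestine E16 the probe set sat at a median position of 8.30% among all probe sets and was not called apart from lung. No detection call was used, so the fold is against a level not shown to be above background. With 16 added to the linear intensity before log2 the rise was 3.66, still called. In lung the difference of Abcc2 was 0.00027 (95% interval -0.26 to 0.26), and the intestinal change exceeded it by 4.06 (SE 0.18, limma adjusted p = 1.69e-22).

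Nr1h4 was measured by probe set 1369073_at. It had a lowest, median and highest log2 intensity of 9.55, 10.06 and 10.16 in intestine E20, against 7.19, 7.60 and 7.77 in intestine E16. In lung it had 7.14, 7.30 and 7.45 at E20, against 6.98, 7.15 and 7.36 at E16. Its intestine E20 arrays lay above every intestine E16 array, as for 17.3% of all genes, and above every lung array. Of them 7 lay between 9.86 and 10.16 and the other 3 from 9.55 to 9.73. The means were 9.95 ± 0.24 in intestine E20 and 7.57 ± 0.17 in intestine E16 (SD, n = 10 each). The rise was 2.38 (SE 0.075, 5.19-fold, limma adjusted p = 2.36e-28), 425th among the rises. In lung the difference of 0.15 (95% interval 0.0023 to 0.30, limma adjusted p = 0.0681) was not called. The intestinal change exceeded it by 2.22 (SE 0.11, limma adjusted p = 1.46e-21).

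Slc10a2, the uptake carrier of the ileal brush border, stayed dim in whole intestine. Its level in ileum alone was not measured, and no detection call was used. Probe set 1368745_at had a lowest, median and highest log2 intensity of 5.74, 6.46 and 6.86 in intestine E20, against 5.41, 5.81 and 6.44 in intestine E16. In lung it had 5.04, 5.37 and 5.97 at E20, against 5.11, 5.60 and 5.92 at E16. The groups overlapped in both tissues, though 5 of the 10 intestine E20 arrays stood above every intestine E16 array. The intestinal difference was 0.55 (SE 0.13, 1.47-fold, 95% interval 0.28 to 0.82, limma adjusted p = 2.94e-04), short of the fold minimum. In lung it was -0.10 (95% interval -0.37 to 0.17, limma adjusted p = 0.51). The difference between these changes was 0.65 (SE 0.19, limma adjusted p = 0.00226), also under the fold minimum. The brightest array of any group, at 6.86, was still below the median of all log2 values.

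Abcc3 and Nr0b2 were called in none of the 5 comparisons, and both were dim in all groups. Abcc3, also called Mrp3 (probe set 1369698_at), ranged from 6.11 to 6.76 in intestine E20, against 5.71 to 6.56 in intestine E16, with medians of 6.29 and 6.14. In lung it ranged from 6.29 to 6.77 at E20, against 5.82 to 6.60 at E16, with medians of 6.49 and 6.29. It lay 0.20 higher at E20 in intestine (95% interval 0.019 to 0.38, limma adjusted p = 0.0438) and 0.21 higher in lung (0.034 to 0.39, adjusted p = 0.0324), both under the fold minimum. Its changes in the tissues differed by -0.015 (intestine minus lung, 95% interval -0.27 to 0.24).

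Nr0b2 (probe set 1368376_at) ranged from 6.16 to 7.13 in intestine E20, against 6.05 to 7.24 in intestine E16, with medians of 6.51 and 6.69. In lung it ranged from 6.05 to 6.40 at E20, against 6.21 to 6.80 at E16, with medians of 6.17 and 6.46. The ages overlapped in both tissues. The intestinal difference was -0.096 (95% interval -0.30 to 0.11, limma adjusted p = 0.398), and the lung difference of -0.26 (-0.46 to -0.053, adjusted p = 0.0235) was under the fold minimum. For Nr0b2, too, the intervals in both tissues left a 2-fold change of the probe set signal outside. Its median position among all probe sets was 19.8% to 24.4% over the groups. No detection call was used, so the intervals cannot limit a change of transcript near background.

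**Figure D2:**
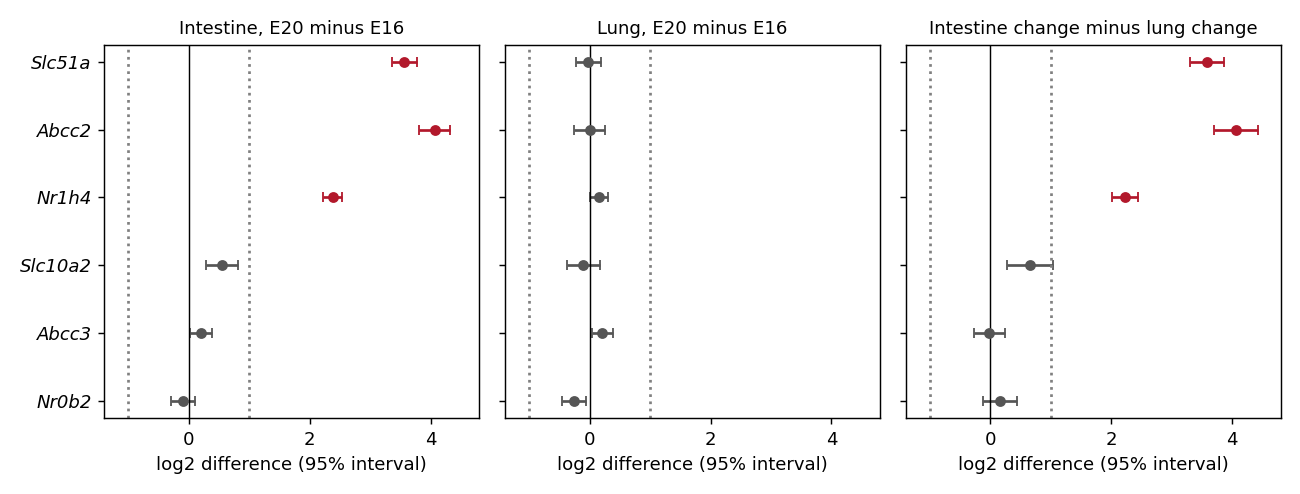
Log2 differences (horizontal axis) with 95% intervals from the limma fit for the 6 genes, in intestine (E20 minus E16), in lung (E20 minus E16) and between these changes. Red marks called genes and dotted lines mark 2-fold. Slc51a, Abcc2 and Nr1h4 lie at 3.56, 4.06 and 2.38 in intestine, while all 6 lung values lie between -0.26 and 0.21.

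Between the tissues at E20, the same 3 genes were called higher in intestine, where 16.1% of all genes were called (8.21% higher in intestine). Abcc2 stood 4.25 above lung (SE 0.13, limma adjusted p = 4.92e-29), Slc51a 4.03 (SE 0.099, adjusted p = 3.21e-32) and Nr1h4 2.65 (SE 0.075, adjusted p = 4.55e-30). For each of them all 10 intestine E20 arrays lay above all lung E20 arrays, as 18.6% of all genes did. Slc10a2 was 0.97 higher in intestine (SE 0.13, limma adjusted p = 1.85e-08), just under the fold minimum, with 9 of 10 intestine arrays above the highest lung array. Leaving out any of 5 single arrays (intestine E20 replicates 1 and 6, lung E20 replicates 1, 7 and 9) took it past that minimum, to between 1.00 and 1.05. The difference was 0.36 for Nr0b2 (limma adjusted p = 0.00144) and -0.17 for Abcc3 (adjusted p = 0.0862), neither called. Without the fold minimum 5 of 6 genes passed, and 73.1% of all genes.

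At E16 none of the 6 genes was called between the tissues, where 5.13% of all genes were. By limma 4 of the 6 had an unadjusted p under 0.05, as did 9560 of all 14217 genes. Without the fold minimum 3 had an adjusted p under 0.05, as did 64.1% of all genes. Slc51a lay 0.44 higher in intestine (SE 0.099, limma adjusted p = 1.94e-04), and its groups did not overlap, the lowest intestine E16 array standing at 7.25 and the highest lung E16 array at 7.23 (11% of all genes were higher in intestine without overlap). Nr1h4 lay 0.42 higher (SE 0.075, adjusted p = 6.22e-06) and Slc10a2 0.32 higher (SE 0.13, adjusted p = 0.0339). At this age the median of all genes was itself 0.11 higher in intestine, and -0.044 with arrays centred. Of all genes called 58.5% were higher in intestine, and 47.1% with arrays centred. With quantile normalization the values were 0.26 for Slc51a, 0.24 for Nr1h4 and 0.085 for Slc10a2. Across the 4 groups, Slc51a, Nr1h4, Abcc2 and Slc10a2 had the order of means intestine E20, intestine E16, then the lung groups. For Abcc2 the step between intestine E16 and lung E16 was 0.19 (limma adjusted p = 0.189) and turned to -0.026 with quantile normalization, so these groups have no settled order. The lung groups did not differ by the criteria for any of the 6 genes.

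Fabp6 and Fgf19, both known to be induced by Nr1h4 in the ileum, were dim in whole intestine as well. Their levels in ileum alone were not measured. The targets of Nr1h4 were not examined as a set. Fabp6, the ileal bile acid binding protein, averaged 6.62 ± 0.21 in intestine E20 and 6.45 ± 0.21 in intestine E16 (SD, n = 10 each; difference 0.16, SE 0.092, limma adjusted p = 0.109). Fgf19, the rodent gene also called Fgf15, which carries the ileal signal that lowers bile acid synthesis in liver, averaged 6.70 ± 0.26 in intestine E20 and 6.51 ± 0.25 in intestine E16 (difference 0.19, SE 0.098, adjusted p = 0.0785). Gpbar1, the cell surface receptor for bile acids, was not analysed here.

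The counts in this and the later lists stand beside shares of all genes called of 8.79% higher and 6.26% lower in intestine. In lung 11.8% of all genes were called. Of 15 other bile acid carriers and export pumps measured, 2 rose in intestine and none fell (median difference 0.14, against -0.086 over all genes). These were Atp8b1, a phospholipid flippase of apical membranes (3.73, SE 0.11), and Abcg2, an efflux pump of wide specificity (2.50, SE 0.11). In lung Atp8b1 rose as well, and Abcg2 fell (-1.20). The organic anion carrier Slco1a5 rose there too (1.75, SE 0.10), and is named after its value was seen. The list's median was 0.055 in lung. Carriers known chiefly from hepatocytes stayed dim. Slc10a1, the hepatic uptake carrier, averaged 4.66 ± 0.34 in intestine E20 and 5.08 ± 0.49 in intestine E16 (SD, n = 10 each). Abcb11, the canalicular bile salt pump, averaged 5.47 ± 0.25 in intestine E20 and 5.24 ± 0.47 in intestine E16. Neither was called.

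Among 12 measured genes of bile acid sensing and its FGF signal, 2 rose and 1 fell in intestine (median 0.21), while 2 rose in lung (median 0.059). The oxysterol receptor Nr1h3 averaged 10.08 ± 0.16 in intestine E20 and 6.13 ± 0.48 in intestine E16 (SD, n = 10 each; rise 3.95, SE 0.12), and it rose by 1.19 in lung. Nr5a2, a nuclear receptor that acts with Nr0b2 on bile acid genes, rose by 2.81 in intestine (SE 0.17) and was not called in lung (-0.58). S1pr2, a membrane receptor that conjugated bile acids can activate, fell in intestine (-1.01, SE 0.066), close to the threshold. Rxra, the partner of Nr1h4 on DNA, was not called in intestine (0.076) and is named after its value was seen.

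Of 15 genes of bile acid synthesis and conjugation, 5 rose and 1 fell in intestine (median -0.042), and 2 rose in lung. Cyp7a1, the rate-limiting enzyme of synthesis, was dim and not called, at 6.87 ± 0.16 in intestine E20 and 7.04 ± 0.17 in intestine E16 (SD, n = 10 each). The genes that rose were Akr1c14, a hydroxysteroid dehydrogenase (5.84, SE 0.094), Scp2, a peroxisomal thiolase and sterol carrier (1.31), Amacr, a peroxisomal racemase (1.18), Slc27a2, a fatty acid and bile acid CoA ligase family member (1.12), and Hsd3b7, a dedicated enzyme of bile acid synthesis (1.09, SE 0.056). The last pair are named after their values were seen. Cyp7b1, an oxysterol hydroxylase, fell (-1.18). The genes that rose in lung were Akr1c14 (2.29) and Hsd3b7 (1.14). Of 9 measured genes of bile acid detoxification, Cyp3a9, a hydroxylating cytochrome, alone rose in intestine (4.83, SE 0.13), and it also rose in lung (2.99). Of 8 measured Abcc relatives of Abcc2 and Abcc3, the chloride channel gene Cftr alone was called in intestine (2.02), while in lung Cftr (2.34) and Abcc9, a potassium channel subunit (1.20, named after its value was seen), rose. In intestine none of the 4 measured Slc10 relatives of Slc10a2 was called. All 4 had an unadjusted limma p under 0.05, as did 10397 of all 14217 genes.

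Of 15 measured transcription factors known to bear on ileal transport genes, 6 rose and 2 fell in intestine (median 0.68), against 1 and 1 in lung (median 0.024). Cdx2 averaged 12.12 ± 0.13 in intestine E20 and 7.81 ± 0.47 in intestine E16 (SD, n = 10 each; rise 4.31). Hnf4a averaged 12.10 ± 0.11 in intestine E20 and 7.93 ± 0.52 in intestine E16 (rise 4.17). Gata4 rose by 3.37 and the orphan receptor Nr2f1 fell (-2.07). Nr2f1 was also the gene that fell in lung (-1.11).

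**Figure D3:**
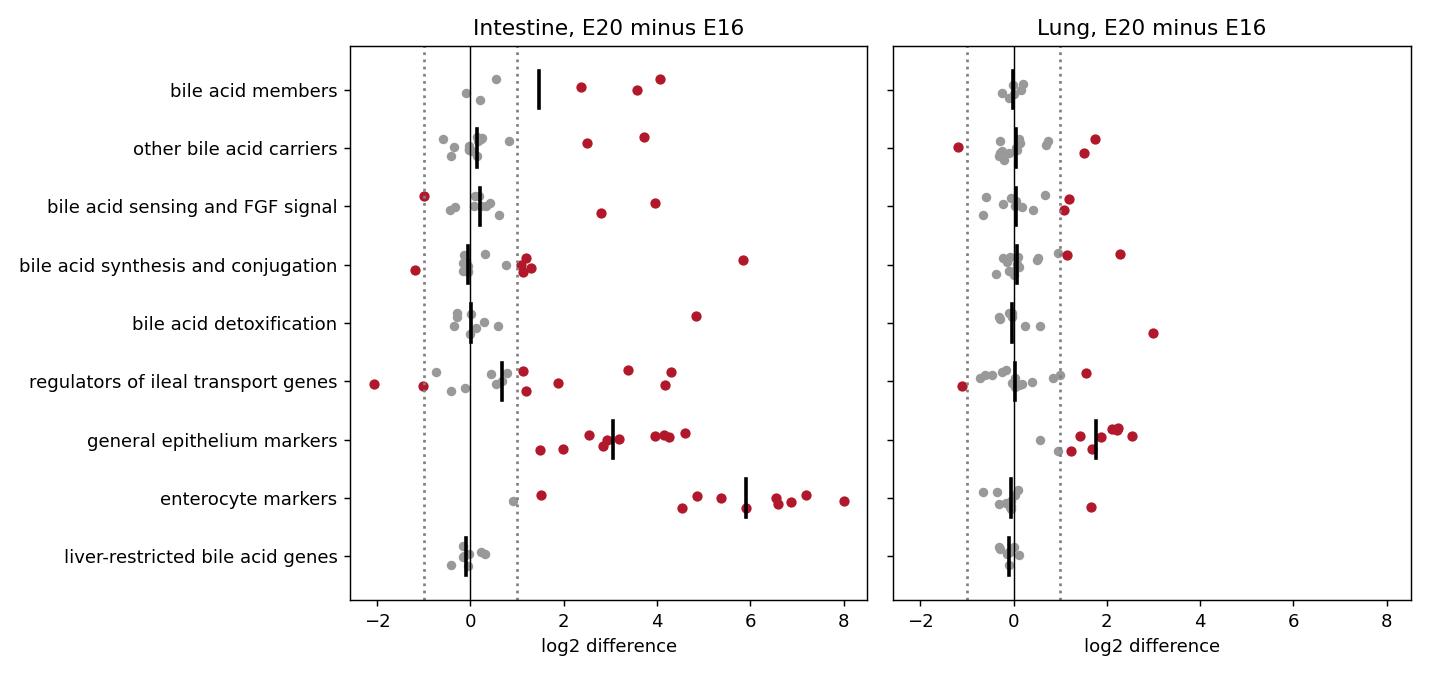
Log2 difference E20 minus E16 (horizontal axis) of each measured gene in 9 lists, in intestine and lung. A point is a gene, red where called, the black bar is the list's median and dotted lines mark 2-fold. The members had medians of 1.46 in intestine and -0.0098 in lung, and the general epithelium markers 3.06 and 1.78.

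Epithelial markers moved with the intestinal rises. All 10 general epithelium markers (Epcam, Cdh1 and others) rose in intestine, and the median of their log2 values ran from 11.58 to 12.08 over the intestine E20 arrays, against 7.88 to 8.90 over the intestine E16 arrays. Of 11 measured enterocyte markers 10 rose (median 5.91), with array medians of 12.46 to 13.43 in intestine E20, against 6.15 to 6.93 in intestine E16. In whole tissue, more cells of a type and more RNA per cell cannot be told apart, and the part of epithelial share in the rises of Slc51a, Abcc2 and Nr1h4 was not tested. In lung 8 of the 10 general epithelium markers rose too (median 1.78), with array medians of 10.62 to 10.91 in lung E20, against 8.94 to 9.41 in lung E16. The tissues matched their labels: lung epithelium markers had a median of 13.08 in lung E20 arrays and 7.27 in intestine E20 arrays.

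The liver also expresses bile acid genes, and liver markers differed between arrays. In 11 of the 40 arrays the liver, exocrine pancreas or mesothelium markers lay over 0.5 above their group median, the highest of the intestinal liver values being 1.72 (intestine E16 replicate 9) and 1.11 (intestine E20 replicate 9). Of 13 measured liver markers, 4 were called higher at E20 in intestine and none lower, with array medians of 7.28 to 9.12 in intestine E20 and 6.99 to 9.03 in intestine E16. Those called were Afp, Fga, Serpina1 and Cps1, with an SD in intestine E20 of 0.27, 0.40, 0.16 and 0.052. Alb, with an SD of 2.27 in intestine E20 and 2.06 in intestine E16, was not called (1.59). The source of these values was not tested. Of 8 bile acid genes known mainly from hepatocytes, 0 were called by limma in any of the 5 comparisons. Of all genes, 15.1% were called between the ages in intestine, 11.8% in lung and 17.6% for the difference of changes. Between the tissues 5.13% were called at E16 and 16.1% at E20, so few calls among 8 genes would be usual. In intestine between the ages 3 of 8 had an unadjusted limma p under 0.05, as did 10397 of all 14217 genes. Their array medians ran from 5.93 to 6.52 in intestine E20 and from 5.91 to 6.57 in intestine E16. Without those 11 arrays the rises were 3.61 for Slc51a, 4.27 for Abcc2 and 2.47 for Nr1h4, all still called. Mesothelium and pancreas markers also moved between the ages in intestine. Of 7 measured mesothelium markers 3 fell, among them Bnc1 (-4.25) and Wt1 (-2.44), and 1 rose, with array medians of 8.33 to 9.67 in intestine E20 and 9.57 to 10.39 in intestine E16. Of 13 measured exocrine pancreas markers 3 fell, among them Amy2a3 (-2.37) and Cpa1 (-1.94), and 1 rose, with array medians of 6.24 to 6.57 in intestine E20 and 6.55 to 7.54 in intestine E16. The part of these tissues in the rises of Slc51a, Abcc2 and Nr1h4 was not tested.

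Within intestine E20, the 10 arrays were compared pair by pair for the 6 genes, which gave 15 pairs. Slc51a and Nr0b2 went together across arrays, with Pearson's r of 0.85 (permutation p = 0.00224, adjusted p = 0.0336) and Spearman's rho of 0.82 (permutation p = 0.00595, adjusted p = 0.0893, two-sided). Replicate 9 was highest for both genes, at 11.63 and 7.13, and replicate 2 was lowest for both, at 10.35 and 6.16. Both replicates also had liver markers above their group median, by 1.11 and 0.73, and the part of liver in this relation was not tested. Without the 2 arrays farthest from the median of Slc51a, r was 0.61 (exact permutation p = 0.0937, n = 8), not past the threshold, over fewer arrays and a narrower range of Slc51a. With quantile normalization no pair passed. Nr0b2 sat at a median position of 23.0% among all probe sets in intestine E20. No detection call was used, so its level there is not shown to be above background. Slc51a and Nr1h4 had an r of 0.75 (permutation p = 0.0125, adjusted p = 0.0938), and Slc51a and Abcc2 an r of 0.48 (permutation p = 0.161, adjusted p = 0.403), neither past the threshold. Slc10a2 had r values of -0.29, -0.31 and -0.39 with Slc51a, Abcc2 and Nr1h4, with adjusted permutation p of 0.56, 0.56 and 0.448. These permutations treat the 10 arrays as exchangeable. Slc51a ran from 10.35 to 11.05 in replicates 1 to 5 and from 10.89 to 11.63 in replicates 6 to 10. Nr0b2 ran from 6.16 to 6.67 and from 6.50 to 7.13 in the same sets. The part of this shift in the r values was not tested.

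**Figure D4:**
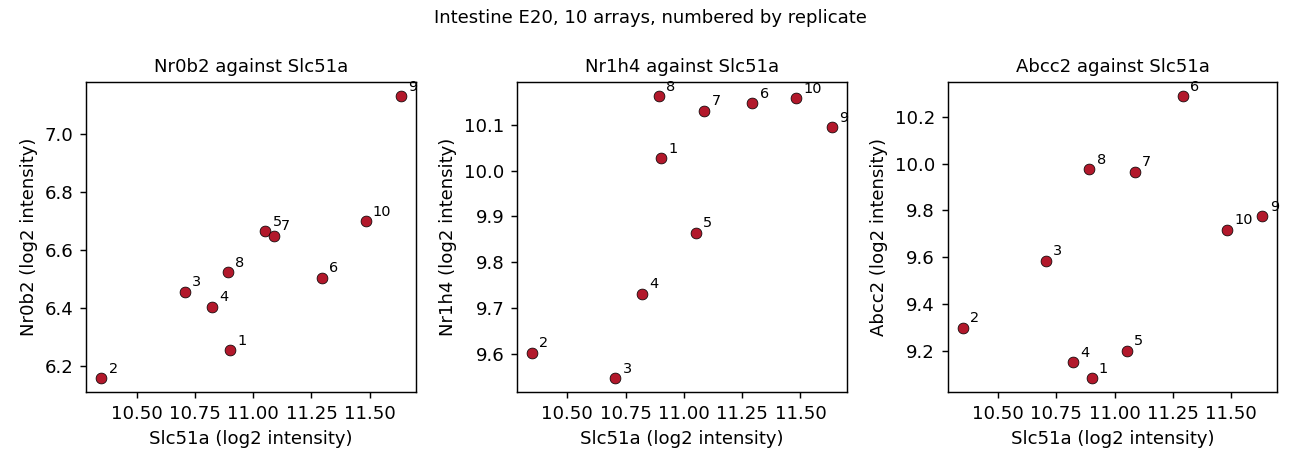
Log2 intensity of Nr0b2, Nr1h4 and Abcc2 (vertical axes) against that of Slc51a (horizontal axis) in the 10 intestine E20 arrays, numbered by replicate. Replicates 2 and 9 form the ends of the relation of Nr0b2 with Slc51a, at 10.35 and 11.63 of Slc51a.

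The genes with the most similar profile were found by the root mean square difference of log2 values over the 40 arrays, after each gene's own mean was subtracted. For Slc51a they were Cideb (0.19 log2 units), which acts in lipid droplet and lipoprotein handling, Tff3 (0.23), a secreted goblet cell peptide, and Hepacam2 (0.24). For Abcc2 they were Cyp2d2 (0.26), a cytochrome, Slc25a34 (0.28), a mitochondrial carrier family member, and Muc2 (0.29), the main goblet cell mucin. For Nr1h4 they were Ccl24 (0.17), a chemokine, Tmem144 (0.19) and Gchfr (0.19), a regulator of tetrahydrobiopterin synthesis. These 9 genes rose by 2.33 to 4.21 in intestine and had lung differences of -0.094 to 0.41. That likeness follows from how they were chosen, over the same 40 arrays, and is no separate result.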

How the data were processed

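Expression was measured on 40 Affymetrix rat arrays in 4 groups of 10 by title. The deposited intensities are linear summary values for 31099 probe sets, made by the authors with RMA per the submitters' processing notes (no version given), and ran from 6.65 to 39901, with array medians of 220 to 264. Log2 was taken here. Arrays have no depth, so their number limits the precision. No detection call, scan date or other batch was used here.

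Probe sets with 1 gene symbol (20826 without controls; 436 had several, 9831 none) were named from the platform annotation, with 20758 updated by Entrez identifier through the GRCr8 gene table. The brightest probe set stood for each of 14217 genes. limma 3.58.1 in R 4.3.3 fitted 4 group means to all 40 arrays, two-sided, with 5 contrasts, and was tested on simulated data. SE and 95% intervals come from this fit. Pairs of genes were tested with 100000 permutations.

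The 7 genes and all lists were chosen with earlier results of these data known. Named beside them were up to 4 called genes per pathway list with the largest intestinal change, Fabp6, Fgf15, Slc10a1, Abcb11, Cyp7a1, Gpbar1 and Hnf4a, and the 3 nearest profiles of each called gene. Alternatives covered scaling, probe set choice, dim genes, weights, thresholds, blocks, a pseudocount of 16 and left-out arrays.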

Additional observations from a re-analysis of the deposited data

Results flagged for a closer look

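The changes between E16 and E20 differed between intestine and lung for 4 of the 6 genes by the limma contrast of the changes (adjusted p under 0.05). Of all 14217 genes, 9411 did so too, a similar share. The difference (intestine change minus lung change) was 4.06 log2 units for Abcc2, 3.58 for Slc51a, 2.22 for Nr1h4 and 0.65 for Slc10a2, the last under the fold minimum. Every intestine E20 array lay above every intestine E16 array for the first 3 genes, as for 17.3% of all genes. No array stood apart from its group by Dixon's criterion (the gap to the next array over the range) in the 24 combinations of gene and group. The closest were Abcc3 in lung E16 replicate 10 (0.462) and Nr0b2 in intestine E20 replicate 9 (0.443).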

How the results depend on the processing

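Slc51a, Abcc2 and Nr1h4 kept their intestinal rise, the difference from lung and the E20 tissue contrast in every setting in which they were tested. Over the settings other than single left-out arrays, the rises spanned 3.45 to 3.64, 3.66 to 4.27 and 2.28 to 2.47. Abcc2 was too dim to enter the setting of genes above the median level, which tested 2 of the 6. Without a fold minimum the genes called were 5 in intestine, 2 in lung, 3 between tissues at E16 and 5 at E20, and 10159, 9478, 9109 and 10397 of all genes (9411 for the difference between changes), against 2140, 1674, 730 and 2292 (2503) with it. A test against a 2-fold difference called 1037 genes in lung, 1522 for the difference and 405 at E16, and genes above the median level alone gave 476 at E16 because fewer were tested. With quantile normalization 0 pairs of genes passed within intestine E20 (1 otherwise, and 1 with centred arrays; both settings were chosen after seeing the data), and the cause was not tested. Centring moved the median of all genes in the difference of changes to 0.098, against -0.032. Leaving out each array in turn left 3, 0, 3, 0 and 3 to 4 genes called in the 5 contrasts.

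Signs turned only for values near 0 that were called in no setting, and the cause was not tested. Abcc3 turned in the difference of changes (0.075 with quantile normalization, 0.11 with centred arrays, 0.069 without the arrays high in markers of other tissues). With single arrays left out it ran from -0.062 to 0.037. Abcc2 turned in lung (-0.080 centred, -0.0051 without those arrays, -0.0018 with 16 added). With single arrays left out it ran from -0.043 to 0.041. Abcc2 between the tissues at E16 turned with quantile normalization (-0.026), and Nr0b2 in intestine without those arrays (0.0065). Slc51a in lung ran from -0.050 to 0.0040 with single arrays left out.

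Same-numbered intestine and lung arrays deviated together in part only, with a correlation over 0.1 in 4 of 10 pairs at E20 (-0.14 to 0.39) and 7 of 10 at E16 (-0.047 to 0.70), and the own number best in 1 and 6. Since not every pair passed 0.1, the numbers were not taken as pairs, though those at E16 may in part be paired. A replicate block, random within age or fixed over 1 to 10, left 3, 0, 3, 0 and 3 genes called and changed no call.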

Other observations

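In intestine E20 the arrays numbered 6 to 10 had the 5 highest Abcc2 values, from 9.72 to 10.29, while those numbered 1 to 5 ran from 9.08 to 9.58. The same arrays had the 5 highest Nr1h4 values, from 10.09 to 10.16, with the others from 9.55 to 10.03. Slc51a and Nr0b2 were shifted in the same direction, with overlap between the sets. This was noticed after the values were seen and was not tested, and the labels attach no meaning to the numbers.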
